A study of Mus musculus with 38 samples.

Results

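The 33 genes described here encode the steps of glycolysis and a set of transcripts known to be induced when oxygen is low. They were chosen by name, not by a cut on their measured values, though with earlier results of these data known. Of them, 21 encode glucose uptake, the glycolytic enzymes and lactate export, 3 regulate the pathway, and 9 are targets of the hypoxia-inducible factors (HIF) outside glycolysis. All 33 were found among the 57126 genes of the largest count tables and in each of the 4 experiments.

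The study concerns adipocyte exosomes, small vesicles released by fat cells, and their effect on breast cancer cells when the fat cells are insulin resistant (IR) or insulin sensitive (IS). In culture, 4T1 cells, a mouse mammary adenocarcinoma line, received exosomes of IR adipocytes (3 libraries) or of IS adipocytes (3 libraries) for 72 h, or were left untreated (3 libraries); the adipocytes were differentiated 3T3-L1 preadipocytes. A brain clonogenic assay gave 5 IR, 5 IS and 5 untreated control libraries, and primary 4T1 tumours gave 5 IR and 4 untreated control libraries. In a further experiment 3 libraries of cultured 4T1 cells are titled miR-145a-3p and 2 are titled scramble. All groups share the 4T1 label, no host age or strain is given in the sources used here, and the labels do not say how an animal came to be in the IR or IS group. Replicates are called biological, but cultures or animals are not told apart in the labels, so the tests speak of the spread among libraries, which may in part be technical.

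Glycolysis splits glucose into pyruvate in the cytosol and yields ATP without oxygen; lactate dehydrogenase then turns pyruvate into lactate, which monocarboxylate transporters carry out of the cell. Tumour cells often run the pathway fast even where oxygen is present. When oxygen falls, prolyl hydroxylases no longer mark the HIF alpha subunits for destruction, and the stabilised factor binds a short DNA core near most glycolytic genes and near genes of pH control, mitochondrial removal, lipid storage and growth arrest.

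Total counts ran from 8455412 to 12785398 per library in culture, 8790616 to 13272583 in brain, 17392887 to 21909370 in tumours and 24972592 to 32637552 in the miRNA experiment. Levels are in CPM, that is, counts scaled by the total over the tested genes and by its scaling factor. Fold changes, standard errors (SE) and adjusted p-values come from edgeR's quasi-likelihood test with Benjamini-Hochberg adjustment over every gene tested in a table, and a gene is called where its adjusted p is under 0.05. Summed over 7 carcinoma epithelial markers, the level was 142 to 223 CPM in IR, 121 to 251 CPM in IS and 185 to 254 CPM in control brain libraries, where untreated cultured 4T1 cells had 3598 to 3615 CPM. The brain libraries thus carry the label 4T1 with little RNA of its epithelial markers. In the miRNA experiment the labels contradict each other: the libraries titled scramble have names that begin with miR145, and those titled miR-145a-3p have names that begin with ScRNA. Groups follow the titles here, and every direction in that experiment depends on them.

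The promoters were searched for the HIF core, since binding to it is what the HIF targets are known for. The letters ACGTG and GCGTG were looked for on both strands, overlapping matches included, in RefSeq windows on GRCm38.p6 that run from 250 bases before to 50 bases after a gene's start. Windows were matched for 31 of the 33 genes, all but Slc2a3 and Ndrg1. Of these, 28 (90.3%) held the core in at least 1 window, beside 12628 of 27025 genes (46.7%) among all genes searched. Counted by window, 37 of 45 (82.2%) held it, beside 14380 of 32851 windows (43.8%) of all genes searched. The genes were not matched for base composition or expression, and what sets the shares apart was not tested. Gpi1, Tpi1 and Eno2 held none. A match describes letters and is not a binding site. Windows are printed for Egln3, Hilpda, Ldha and Slc16a3: Egln3 and Hilpda as HIF targets and Ldha and Slc16a3 for lactate production and export, each called in a comparison below. They run 5′ to 3′ on the gene's strand with the core, or its reverse complement, in capitals. They lie at chr12:54203825-54204124 (- strand), chr6:29272376-29272675 (+ strand), chr7:46845554-46845853 (+ strand) and chr11:120948817-120949116 (+ strand).
Egln3: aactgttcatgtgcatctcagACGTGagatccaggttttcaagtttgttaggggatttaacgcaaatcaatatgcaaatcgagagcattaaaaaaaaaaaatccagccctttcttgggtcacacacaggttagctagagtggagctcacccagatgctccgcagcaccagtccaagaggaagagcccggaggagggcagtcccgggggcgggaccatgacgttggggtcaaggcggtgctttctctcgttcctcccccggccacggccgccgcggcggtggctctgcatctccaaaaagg
Hilpda: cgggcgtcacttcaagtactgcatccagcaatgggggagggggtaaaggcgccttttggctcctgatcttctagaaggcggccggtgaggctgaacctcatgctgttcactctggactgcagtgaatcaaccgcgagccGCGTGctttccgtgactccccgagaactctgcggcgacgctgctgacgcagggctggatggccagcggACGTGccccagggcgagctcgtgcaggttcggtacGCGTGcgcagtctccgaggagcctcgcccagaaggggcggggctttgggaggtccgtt
Ldha: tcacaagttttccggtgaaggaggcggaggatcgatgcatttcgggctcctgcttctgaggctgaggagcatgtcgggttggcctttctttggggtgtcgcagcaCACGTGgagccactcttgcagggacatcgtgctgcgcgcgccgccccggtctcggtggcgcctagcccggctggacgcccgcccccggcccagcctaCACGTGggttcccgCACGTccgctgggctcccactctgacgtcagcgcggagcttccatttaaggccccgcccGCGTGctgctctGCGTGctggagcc
Slc16a3: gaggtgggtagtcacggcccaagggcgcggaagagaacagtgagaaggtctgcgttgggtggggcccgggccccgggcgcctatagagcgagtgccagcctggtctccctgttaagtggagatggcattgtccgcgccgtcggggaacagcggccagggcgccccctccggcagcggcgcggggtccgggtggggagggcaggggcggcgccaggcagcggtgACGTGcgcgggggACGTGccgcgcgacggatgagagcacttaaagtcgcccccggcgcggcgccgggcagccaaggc
The Ldha window held 7 matches, Hilpda 3, Slc16a3 2 and Egln3 1. Where a gene had more than 1 window, the one with most matches is printed. A further Ldha window held 2 matches and a further Hilpda window 1.

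Set side by side over the 4 experiments, with no test, the genes formed an abundant core and a few that were near absent in cultured cells. Gapdh, glyceraldehyde phosphate dehydrogenase, ranked 1 of 33 in CPM per kilobase of transcript in all 10 groups, and Pkm, pyruvate kinase, or Aldoa, the muscle aldolase, ranked 2 in each of them. Slc16a3, the lactate exporter of strongly glycolytic cells, had 6, 6 and 5 counts in all over the IR, IS and untreated cultures. It averaged 60.4 ± 15.6 CPM in IR, 38.5 ± 5.14 CPM in IS and 38.2 ± 6.35 CPM in control brain libraries (SD, n = 5 each). Eno2, the neuronal enolase, spanned 0.716 to 2.76 CPM over the 9 cultures and 59.5 to 82.5 CPM over the 15 brain libraries. Car9, a carbonic anhydrase of hypoxic tumour cells, spanned 68.9 to 181 CPM in IR tumours and 80.9 to 167 CPM in control tumours, against 4.12 to 10.7 CPM over cultures and brain. Ankrd37, an ankyrin repeat gene, stayed at 0.744 to 2.34 CPM in cultures and brain and reached 11.7 to 21.2 CPM in IR and 10.8 to 17.8 CPM in control tumours.

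The paralogue that carried a step also differed by experiment, as shares of CPM per kilobase within a family. Ldhb, the heart form of lactate dehydrogenase, made up 29.3% ± 3.94 of Ldha plus Ldhb in IR, 32.9% ± 1.84 in IS and 27.2% ± 1.04 in control brain libraries (SD, n = 5 each). In culture its share was 0.943% ± 0.0986 in IR, 1.44% ± 0.0709 in IS and 0.811% ± 0.0747 in untreated cells (SD, n = 3 each). Pfkl, the liver phosphofructokinase, led its family in culture, with 79.8% ± 0.394 in IR, 75.2% ± 0.19 in IS and 82.5% ± 0.251 in untreated cells. Pfkp, the platelet form, led in brain, with 44.9% ± 3.88 in IR, 46.5% ± 2.21 in IS and 38.4% ± 1.52 in control libraries. The share of Hk2, the inducible hexokinase, in Hk1 plus Hk2 was 10.2% ± 1.87 in IR, 14% ± 2.63 in IS and 15.1% ± 0.908 in control brain libraries, and 37.2% ± 5.92 in IR (n = 5) and 30.2% ± 2.36 in control tumours (n = 4). Lengths are those of the longest protein-coding transcript of a gene, so a share depends on that choice.

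**Figure D1:**
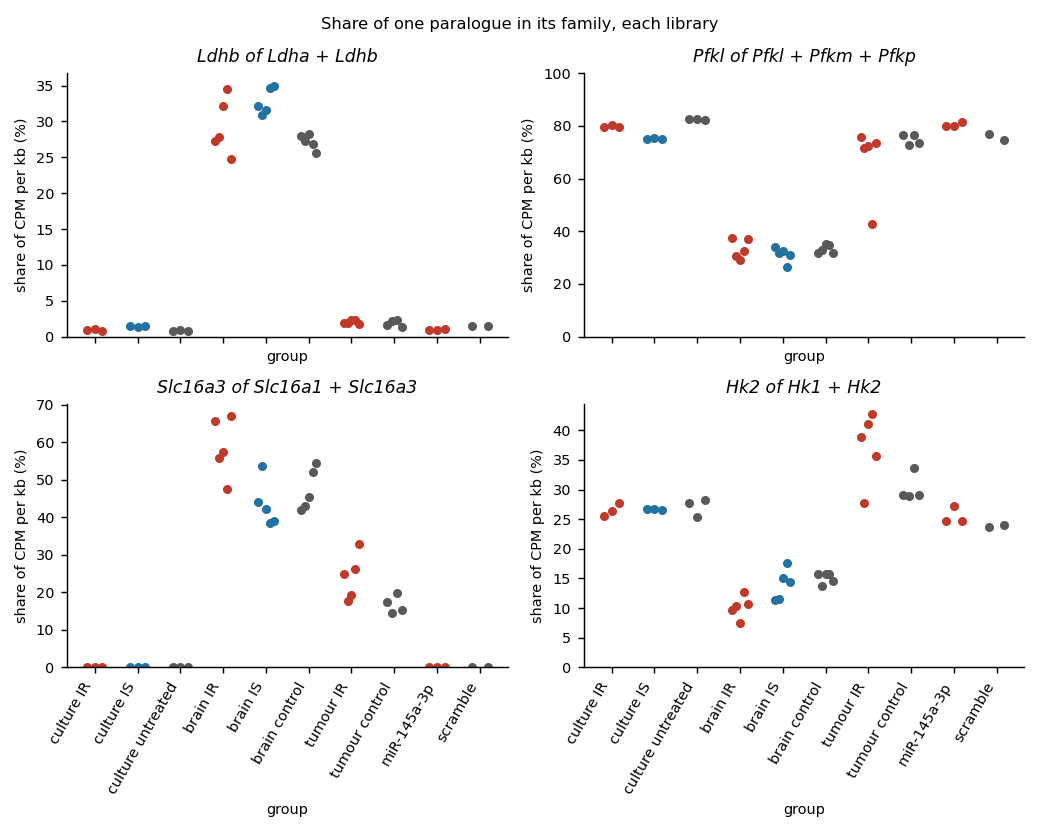
Share of 1 paralogue in its family, in % of CPM per kilobase of transcript (y axes), for each library (points) of the 10 groups (x axes). Ldhb and Slc16a3 lie near 0% in culture and are high in brain, and Pfkl leads in culture but not in brain.

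Cultures given IR exosomes, against untreated cultures, had higher Egln3, a prolyl hydroxylase that HIF itself induces, and higher Ndrg1, a stress-responsive gene, and lower Ddit4, an inhibitor of the growth kinase mTOR. Within glycolysis, Gapdh, Pgam1, Eno1, Ldha and Slc16a1 were lower by small amounts and Pfkp was higher. Of 28 genes tested, 3 were called higher and 6 lower (32.1% of them), where 13.6% of all 10888 genes were called, 6.67% higher and 6.9% lower. The groups were apart in 14 of the 28 genes, and in 30.2% of all genes. The median absolute log2 change was 0.10 over the 28 genes and 0.10 over all genes.

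Egln3 had 63.5, 60 and 62.5 CPM in IR cultures, against 46.5, 49.3 and 49.1 CPM in untreated cultures. All 3 IR libraries lay above all 3 untreated ones, 1.28-fold higher (log2 change 0.36, SE 0.0566, adjusted p = 0.000339, edgeR). Ndrg1 had 83.3, 80.4 and 78.1 CPM in IR cultures, against 68.3, 67 and 67.1 CPM in untreated cultures. These groups did not overlap either, at 1.19-fold higher (adjusted p = 0.00328, edgeR). Ddit4 had 28.3, 33.6 and 27.2 CPM in IR cultures, against 39.1, 42.4 and 42.1 CPM in untreated cultures. Every IR library was below every untreated one, 1.39-fold lower (log2 change -0.47, SE 0.0805, adjusted p = 0.000742, edgeR).

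The called glycolytic genes that were lower act from glyceraldehyde phosphate down to lactate and its export. Gapdh had 2436, 2401 and 2469 CPM in IR cultures, against 2606, 2637 and 2625 CPM in untreated cultures. The groups were apart by a small step, 1.08-fold lower (log2 change -0.11, SE 0.0222, adjusted p = 0.00384, edgeR). Ldha, the muscle lactate dehydrogenase, had 1514, 1490 and 1458 CPM in IR cultures, against 1585, 1595 and 1609 CPM in untreated cultures. It was 1.07-fold lower without overlap (adjusted p = 0.0165, edgeR). The enolase Eno1 was 1.07-fold lower (adjusted p = 0.0169), the phosphoglycerate mutase Pgam1 1.09-fold lower (adjusted p = 0.0283) and the lactate carrier Slc16a1 1.08-fold lower (adjusted p = 0.0475). Pfkp was 1.14-fold higher (adjusted p = 0.0336). Summed over the 21 glycolysis genes, the level was 14188 to 14514 CPM in IR and 15014 to 15417 CPM in untreated cultures. The other 19 genes tested had log2 changes from -0.09 for Pfkl to 0.35 for Car9, and Slc2a3, Eno2, Slc16a3, Adm and Ankrd37 were too low in culture to be tested.

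Leaving out 1 library ended the call of Pfkp without IR 1 or 3 or untreated 1 or 2 (adjusted p from 0.0555 to 0.142), of Pgam1 without IR 1 or 3 or untreated 1 or 2 (adjusted p from 0.0622 to 0.108), of Eno1 without IR 2 or untreated 1 (adjusted p from 0.0528 to 0.0789), of Ldha without IR 3 or untreated 3 (adjusted p from 0.0511 to 0.0774) and of Slc16a1 without IR 1 or 3 or untreated 1, 2 or 3 (adjusted p from 0.0776 to 0.145); 3 genes were called lower without IR 3 or without untreated 1. DESeq2 did not call Pfkp (adjusted p = 0.0897) or Slc16a1 (adjusted p = 0.0532), and with no filter on low counts edgeR called neither (adjusted p = 0.051 for Pfkp and 0.0934 for Slc16a1). Upper quartile scaling ended the calls of Pgam1 (adjusted p = 0.0642) and Slc16a1 (adjusted p = 0.0983). Without scaling factors the split was 3 higher and 2 lower, with Pgam1, Eno1, Ldha and Slc16a1 no longer called; carcinoma epithelial markers, 5 of 7 called lower and none at 0, summed to 3134 to 3203 CPM in IR and 3598 to 3615 CPM in untreated cultures, and their part in these results was not tested.

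**Figure D2:**
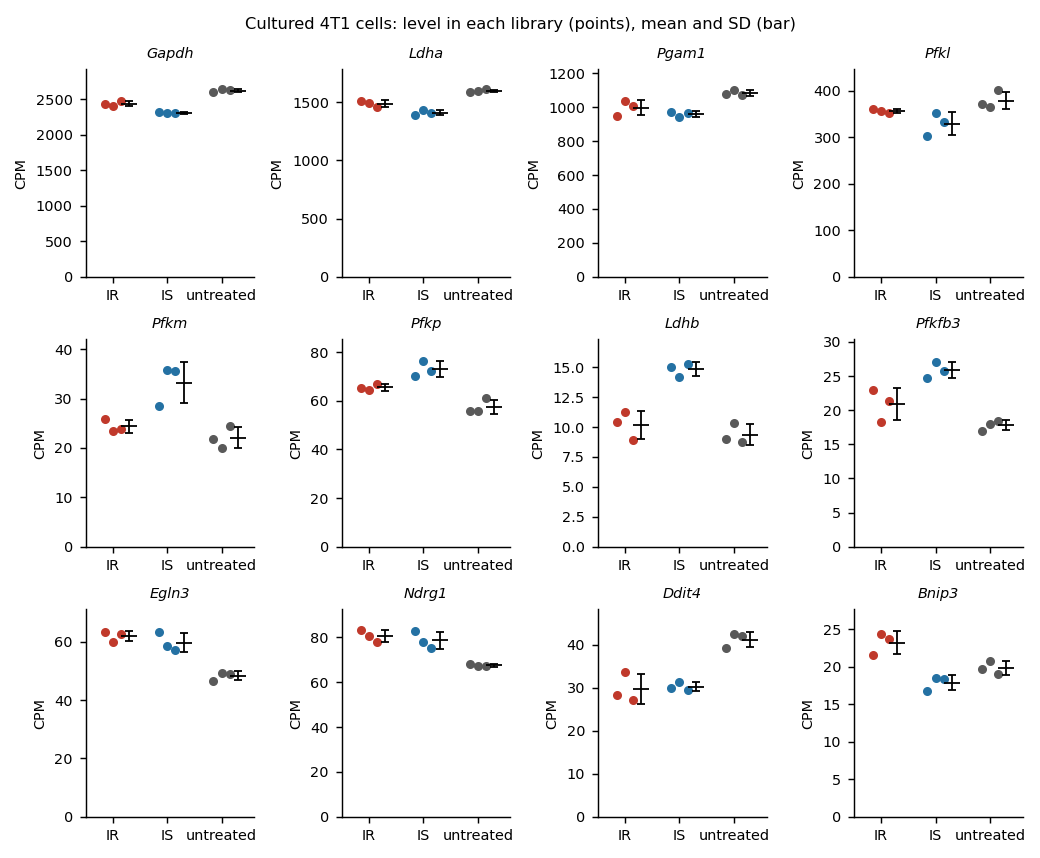
Levels in CPM (y axes) of 12 genes in each cultured 4T1 library (points), with mean and SD (bars), for IR, IS and untreated cells (x axes). Egln3 and Ndrg1 lie higher and Ddit4 and Gapdh lower in both exosome groups than in untreated cells, and Pfkm and Ldhb are highest in IS.

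Cultures given IS exosomes, against the same untreated cultures, had lower levels of most enzymes from aldolase to lactate, and higher Hk1, Pfkm, Pfkp and Ldhb and the regulator Pfkfb3. Of 28 genes tested, 7 were called higher and 10 lower (60.7%), where 19.3% of all genes were called, 9.97% higher and 9.32% lower. The groups were apart in 21 of the 28 genes, and in 36.8% of all genes. The median absolute log2 change was 0.18 over these genes and 0.11 over all genes.

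Ldhb had 15, 14.2 and 15.3 CPM in IS cultures, against 9, 10.3 and 8.77 CPM in untreated cultures. The groups did not overlap, at 1.59-fold higher (log2 change 0.67, SE 0.122, adjusted p = 0.000991, edgeR). Pfkm, the muscle phosphofructokinase, had 28.5, 35.7 and 35.5 CPM in IS cultures, against 21.8, 20 and 24.4 CPM in untreated cultures. IS 1 was the lowest IS library and still above every untreated one, and the gene was 1.49-fold higher (adjusted p = 0.000649, edgeR). Pfkfb3, which makes the sugar phosphate that activates phosphofructokinase, had 24.8, 27.1 and 25.8 CPM in IS cultures, against 17, 17.9 and 18.4 CPM in untreated cultures. It was 1.45-fold higher without overlap (adjusted p = 0.000682, edgeR). Pfkp was 1.26-fold and Hk1, the housekeeping hexokinase, 1.14-fold higher.

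Gapdh had 2327, 2305 and 2303 CPM in IS cultures, against 2606, 2637 and 2625 CPM in untreated cultures. The groups were apart, at 1.13-fold lower (adjusted p = 2.39e-05, edgeR). Ldha had 1390, 1431 and 1409 CPM in IS cultures, against 1585, 1595 and 1609 CPM in untreated cultures. It was likewise apart and 1.13-fold lower (adjusted p = 0.000154, edgeR). Pfkl was 1.15-fold, Pgam1 1.13-fold, Pgk1 1.12-fold, Eno1 1.11-fold, Aldoa 1.09-fold and Tpi1 1.09-fold lower. Aldoc, the brain aldolase, had 3.41, 3.29 and 2.48 CPM in IS cultures, against 5.06, 3.52 and 5.37 CPM in untreated cultures. It was 1.54-fold lower, with the lowest untreated library just above the highest IS library, close to the limit of a call (adjusted p = 0.0483, edgeR). Summed over the 21 glycolysis genes, the level was 13754 to 14082 CPM in IS and 15014 to 15417 CPM in untreated cultures.

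Among the HIF targets, Ddit4 had 29.9, 31.4 and 29.4 CPM in IS cultures, against 39.1, 42.4 and 42.1 CPM in untreated cultures. It was 1.37-fold lower without overlap (adjusted p = 0.000842, edgeR), and Egln3 was 1.24-fold and Ndrg1 1.17-fold higher. The other 11 genes tested had log2 changes from -0.15 for Bnip3 to 0.30 for Hilpda. Leaving out 1 library ended the call of Aldoc without IS 1, 2 or 3 or untreated 1 or 3 (adjusted p from 0.0616 to 0.193), of Tpi1 without IS 1 or 3 or untreated 1 or 3 (adjusted p from 0.0504 to 0.0691) and of Pfkl without untreated 3 (adjusted p = 0.0518). DESeq2, the other scalings and the other filters also ended the call of Aldoc (adjusted p = 0.115 with DESeq2), and Tpi1 was not called without scaling factors (adjusted p = 0.0959). Carcinoma epithelial markers, 6 of 7 called lower and none at 0, summed to 2671 to 2730 CPM in IS and 3598 to 3615 CPM in untreated cultures, and their part was not tested.

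Between IR and IS cultures, 3 of 28 genes were called: Bnip3, which marks mitochondria for removal, was higher in IR, and Pfkm and Ldhb were lower (10.7%, where 6.27% of all genes were called, 2.82% higher and 3.45% lower). Bnip3 had 21.5, 24.4 and 23.8 CPM in IR cultures, against 16.7, 18.5 and 18.3 CPM in IS cultures. The groups did not overlap, at 1.30-fold higher in IR (log2 difference 0.38, SE 0.087, adjusted p = 0.0161, edgeR). Ldhb had 10.4, 11.2 and 8.90 CPM in IR cultures, against 15, 14.2 and 15.3 CPM in IS cultures, 1.46-fold lower in IR (adjusted p = 0.0136, edgeR). Pfkm had 25.8, 23.4 and 23.8 CPM in IR cultures, against 28.5, 35.7 and 35.5 CPM in IS cultures, 1.36-fold lower in IR (adjusted p = 0.0143, edgeR). In both genes all IR libraries were below all IS libraries. Such separation, in either direction, was seen in 16 of the 28 genes and in 26.6% of all genes. The other 25 genes tested had log2 differences from -0.31 for Pfkfb3 to 0.62 for Aldoc. Leaving out 1 library ended the call of Pfkm without IR 2 or 3 or IS 2 or 3 (adjusted p from 0.0502 to 0.0767), of Ldhb without IR 3 or IS 3 (adjusted p from 0.0596 to 0.0617) and of Bnip3 without IR 2 or 3 or IS 1 or 3 (adjusted p from 0.0508 to 0.0766); without IR 1, 2 genes were higher and 4 lower. Over all genes 683 were called, and leaving out any 1 library other than IR 1 brought this to between 298, with IS 3 left out, and 375, with IR 2 left out.

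Of 34 further HIF targets tested in culture, 8 were higher and 3 lower with IR exosomes, and 9 higher and 3 lower with IS exosomes, where 13.6% of all genes were called with IR and 19.3% with IS exosomes. Nos2, the inducible nitric oxide synthase, had 8.25, 8.14 and 10.1 CPM in IR and 11.4, 7.75 and 10.1 CPM in IS cultures, against 0.303, 0 and 0.358 CPM in untreated cultures. It was near absent without exosomes and was called higher with both (adjusted p = 5.81e-08 for IR and 2.68e-08 for IS, edgeR). It passed the filter of 3 CPM in 3 libraries only through the exosome groups, where it was high, so the call is not separate from that filter. Angptl4, an inhibitor of lipoprotein lipase, was 4.24-fold higher with IR and 3.78-fold higher with IS exosomes, and Cp, ceruloplasmin, 2.71-fold and 2.59-fold higher. Angptl4 had 1.11, 1.32 and 2.06 CPM in untreated cultures, so it too was tested only through the exosome groups. The counts of further targets called higher include such genes. Bhlhe40, a transcriptional repressor, was 2.05-fold lower with IR and 2.08-fold lower with IS exosomes. Stc2, a stanniocalcin, was 2.06-fold lower with IR exosomes and was not called with IS exosomes (log2 change -0.15). Of 12 genes of the HIF machinery, 2 were higher and 1 lower with IR exosomes and 1 higher and 1 lower with IS exosomes. The prolyl hydroxylase Egln2 was 1.21-fold higher with IR and 1.23-fold higher with IS exosomes. Hif1a, shown because it encodes the factor itself, had 196, 210 and 202 CPM in IR and 226, 221 and 211 CPM in IS cultures, against 204, 217 and 213 CPM in untreated cultures, and was not called in either. Of 11 genes of pyruvate entry into mitochondria, only the phosphatase gene Pdp2 was called, 1.37-fold lower with IR and 1.73-fold lower with IS exosomes. Of 11 further glycolytic genes 0 were called with IR exosomes by edgeR (2 had an unadjusted p under 0.05, as had 26.7% of all genes), and Ldhd, a mitochondrial D-lactate dehydrogenase, was 1.70-fold and the muscle enolase Eno3 1.09-fold higher with IS exosomes. Of 2 gluconeogenic genes tested, the mitochondrial carboxykinase Pck2 was 1.22-fold lower with IR exosomes. Between IR and IS cultures, 1 further target was higher and 4 were lower in IR, where 6.27% of all genes were called. Bnip3l, a relative of Bnip3, was 1.26-fold higher, Stc2 1.86-fold lower and Hmox1, haem oxygenase, 1.35-fold lower.

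In brain, IR libraries had higher levels than controls of genes of glucose uptake and the first steps of glycolysis (Slc2a1, Hk1, Gpi1, Pfkl, Pfkp and Aldoa), of Ldhb, of the lactate exporter Slc16a3 and of Egln3 and Ndrg1. Hilpda, which protects lipid droplets from breakdown, was lower. Of 32 genes tested, 10 were called higher and 1 lower (34.4%), where 11.7% of all 12924 genes were called, 6.45% higher and 5.27% lower. The median absolute log2 change was 0.25 over these genes and 0.15 over all genes. In bulk libraries fewer cells of a type and less RNA per cell cannot be told apart.

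Pfkp had 214, 204, 287, 194 and 206 CPM in IR libraries, against 119.9, 125, 148, 144 and 155 CPM in controls. All IR libraries lay above all controls, with IR 3 the highest, at 1.60-fold higher (log2 change 0.68, SE 0.105, adjusted p = 0.001, edgeR). Egln3 had 30.4, 27.2, 35, 23.6 and 27.5 CPM in IR libraries, against 12.3, 15, 17.2, 19.8 and 17.9 CPM in controls. The groups did not overlap, at 1.75-fold higher (log2 change 0.81, SE 0.146, adjusted p = 0.0024, edgeR). Slc16a3 had 75.1, 43.7, 64.2, 44.2 and 74.6 CPM in IR libraries, against 33.5, 32.1, 35.7, 46.6 and 43.2 CPM in controls. IR 2 and 4 fell inside the control range, and the gene was 1.58-fold higher (adjusted p = 0.0152, edgeR). Hilpda had 34.9, 41.8, 25.3, 43.5 and 47.3 CPM in IR libraries, against 65.7, 61.5, 53.3, 62.1 and 65.1 CPM in controls. Every IR library was below every control, 1.60-fold lower (log2 change -0.68, SE 0.168, adjusted p = 0.0161, edgeR).

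Hk1 had 217, 215, 254, 167 and 219 CPM in IR libraries, against 156, 167, 162, 159.9 and 172 CPM in controls. IR 4 fell among the controls and the other 4 were above them, at 1.31-fold higher (adjusted p = 0.0092, edgeR). Gpi1, glucose phosphate isomerase, had 499.7, 419, 507, 462 and 470.2 CPM in IR libraries, against 372, 356, 399.9, 373 and 381 CPM in controls. It was 1.25-fold higher without overlap (adjusted p = 0.00634, edgeR). Ndrg1 had 37.9, 34.5, 30.5, 28.8 and 33.5 CPM in IR libraries, against 25.8, 22.9, 24.3, 21.9 and 25.3 CPM in controls, and was 1.37-fold higher (adjusted p = 0.00307, edgeR). Pfkl was 1.36-fold, Ldhb 1.30-fold, the glucose transporter Slc2a1 1.21-fold and Aldoa 1.19-fold higher. Summed over the 21 glycolysis genes, the level was 11736 to 12840 CPM in IR and 10044 to 11416 CPM in control libraries, with no overlap.

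The later steps were not called: Gapdh, Pgk1, Pgam1, Eno1, Pkm and Ldha had log2 changes from 0.04 for Pgam1 to 0.22 for Ldha. Gapdh had 1678 to 1794 CPM in IR and 1496 to 1627 CPM in control libraries, without overlap. Tpi1 was not called, at 353 to 421 CPM in IR and 288 to 357 CPM in control libraries, nor were Pfkm and Aldoc of the earlier steps. The called change of Aldoa, 0.251, was close to that of Ldha, and earlier and later steps were not compared by a test. Pfkfb3 had 55.5, 72.3, 43.7, 70.2 and 63.8 CPM in IR libraries, against 87.5, 97, 89, 122 and 121 CPM in controls. All IR libraries were below all controls, yet the log2 change of -0.76 did not pass (SE 0.256, adjusted p = 0.0637, edgeR). Hk2 had 30.2, 31.7, 26.6, 31.5 and 33.5 CPM in IR libraries, against 37.5, 34.3, 39.2, 38.4 and 37.8 CPM in controls, again without overlap and without a call (adjusted p = 0.0751, edgeR). Separation of this kind, in either direction, was seen in 11 of the 32 genes and in 11.8% of all genes. The highest uncalled log2 change was 0.49 for Ddit4, and Ankrd37 was too low to be tested.

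Leaving out 1 library ended the call of Slc2a1 without IR 3 or 5 or control 1, 2 or 4 (adjusted p from 0.0799 to 0.0995), of Pfkl without IR 1, 3 or 5 or control 1, 2 or 5 (adjusted p from 0.0509 to 0.0684), of Aldoa without IR 1, 3 or 5 or control 1, 2, 3, 4 or 5 (adjusted p from 0.0516 to 0.106) and of Ldhb without IR 1, 3 or 4 or control 1, 2, 4 or 5 (adjusted p from 0.0586 to 0.0899); with no filter on low counts Slc2a1 (adjusted p = 0.0807) and Aldoa (adjusted p = 0.0982) were not called, nor was Aldoa with upper quartile scaling (adjusted p = 0.0552). The count called higher was 6 without IR 3, control 1 or control 2, and the 1514 calls over all genes fell to 838 without IR 3, 954 without control 2 and 894 without control 4. Endothelial markers, 6 of 7 called higher, summed to 395 to 819 CPM in IR and 111 to 169 CPM in control libraries, and macrophage and microglia markers, 5 of 6 tested called lower, to 99.5 to 349 CPM in IR and 476 to 663 CPM in controls; no marker of either list was at 0, and their part in these results was not tested.

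**Figure D3:**
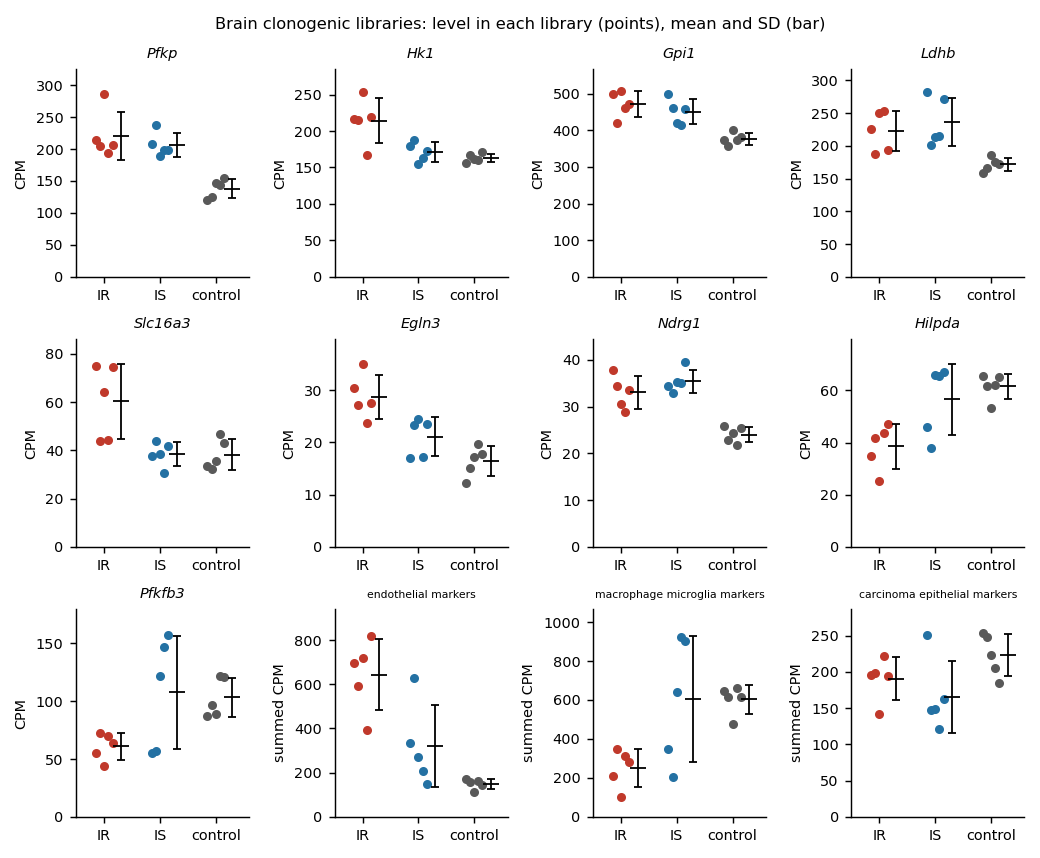
Levels in CPM (y axes) of 9 genes and summed levels of 3 marker lists in each brain library (points), with mean and SD (bars), for IR, IS and control (x axes). Pfkp, Gpi1 and Ndrg1 are higher in IR and IS than in control, Hilpda is lower in IR, and the endothelial sum of every IR library lies above every control.

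IS brain libraries, against the same controls, had higher Ndrg1, Pfkp, Ldhb and Gpi1. Of 32 genes tested, 4 were called higher and 0 lower by edgeR (12.5% of them), where 6.46% of all genes were called, 3.37% higher and 3.1% lower; DESeq2 also called 0 lower. An unadjusted p under 0.05 was found for 7 of the 32 genes (21.9%) and for 21.7% of all genes. Pfkp had 207, 237, 189, 199 and 199 CPM in IS libraries, against 119.9, 125, 148, 144 and 155 CPM in controls. The groups did not overlap, which held for 5 of the 32 genes and 7.81% of all genes, at 1.49-fold higher (log2 change 0.58, SE 0.105, adjusted p = 0.00393, edgeR). Ndrg1 had 34.5, 32.8, 35.4, 35 and 39.5 CPM in IS libraries, against 25.8, 22.9, 24.3, 21.9 and 25.3 CPM in controls. All IS libraries were above all controls, 1.47-fold higher (adjusted p = 0.00118, edgeR). Ldhb had 282, 202, 213, 214 and 272 CPM in IS libraries, against 158, 166, 186, 176 and 172 CPM in controls, 1.38-fold higher without overlap (adjusted p = 0.0172, edgeR). Gpi1 was 1.20-fold higher (adjusted p = 0.0338), a call that ended without IS 1, 2 or 5 or control 1, 2, 4 or 5 (adjusted p from 0.0505 to 0.0893) and with no filter on low counts (adjusted p = 0.0716). The 835 calls over all genes fell to 461 without control 2, 487 without control 3 and 498 without control 4, and by over 1.5 times without control 5 as well.

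Pfkfb3 and Hilpda spread widely within the IS group. Pfkfb3 had 55, 57.3, 122, 147 and 158 CPM in IS libraries 1 to 5. Hilpda had 46.1, 37.9, 66, 65.7 and 67.1 CPM in the same libraries. IS 1 and 2 were the low ones for both genes. Endothelial markers summed to 335 and 628 CPM in IS 1 and 2 and to 271, 209 and 150 CPM in IS 3 to 5. Macrophage and microglia markers summed to 350.3 and 207 CPM in IS 1 and 2 and to 641, 924 and 905 CPM in IS 3 to 5, and their part was not tested. The uncalled genes had log2 changes from -0.29 for Adm, a vasodilator peptide, to 0.45 for Aldoc.

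Between IR and IS brain libraries, 0 of 32 genes were called by edgeR, where 0.0464% of all genes were called, 0.0232% higher and 0.0232% lower; DESeq2 called 4 higher and 2 lower in IR, and 604 of all genes (4.67%), 274 higher and 330 lower. An unadjusted p under 0.05 was found for 12 of the 32 genes (37.5%) and for 18.1% of all genes. The 6 edgeR calls over all genes moved with single libraries, to 145 without IR 4, 200 without IS 1, 1171 without IS 2 and 0 to 2 without any other. Of the 32 genes, 2 were then higher without IR 4, 1 higher and 1 lower without IS 1, and 2 higher and 3 lower without IS 2. The smallest adjusted p by edgeR was 0.0756, for Slc16a3. Slc16a3 had 75.1, 43.7, 64.2, 44.2 and 74.6 CPM in IR libraries, against 37.5, 44, 38.5, 30.5 and 41.8 CPM in IS libraries. IR 2 fell within the IS range and the other IR libraries were above it. Slc2a1 had 282, 289.7, 315, 299 and 349 CPM in IR libraries, against 233, 239, 242, 259 and 279 CPM in IS libraries. All IR libraries were above all IS libraries (adjusted p = 0.0774, edgeR), and groups were apart in 2 of the 32 genes and in 1.89% of all genes. The log2 differences of the 32 genes ran from -0.82 for Pfkfb3 to 0.65 for Slc16a3.

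Of 41 further HIF targets tested in brain, 7 were higher and 6 lower in IR libraries, and 2 higher and 6 lower in IS libraries, where 11.7% of all genes were called in IR and 6.46% in IS. Lox, which cross-links collagen, had 370.3, 372, 179.7, 437 and 363 CPM in IR and 378, 306, 363, 279 and 325 CPM in IS libraries, against 912, 821, 1037, 881 and 899.9 CPM in controls. Both groups lay wholly below the controls, 2.64-fold lower in IR and 2.76-fold lower in IS. Over the cultures Lox had 0 to 0.117 CPM. Fibroblast markers summed to 444 to 849 CPM in IR, 574 to 879 CPM in IS and 737 to 979 CPM in control brain libraries. Pericyte and smooth muscle markers summed to 331 to 746, 371 to 1183 and 702 to 1025 CPM in the same order, and their part was not tested. Stc1, a stanniocalcin, was 2.98-fold higher, Edn1, a vasoconstrictor peptide of endothelium, 2.81-fold higher and Ndufa4l2 2.26-fold higher in IR. Hif1a had 471, 509, 592, 423 and 415 CPM in IR and 391, 455, 435, 371 and 382 CPM in IS libraries, against 304, 332, 336, 319 and 334 CPM in controls. It was 1.48-fold higher in IR (adjusted p = 0.00117) and 1.25-fold higher in IS (adjusted p = 0.0416, edgeR). Of 13 genes of pyruvate entry, 2 were higher and 1 lower in IR. Pdk4, which inhibits pyruvate dehydrogenase, was 1.92-fold higher and Pdp1, which reactivates it, 1.47-fold lower in IR. Of 19 further glycolytic genes, Hk3, a hexokinase of myeloid cells, was 2.28-fold lower and Ldhd 1.51-fold higher in IR. Pck2 was 1.40-fold higher in IR and 1.32-fold higher in IS libraries. In IS libraries Loxl2, a relative of Lox, was 2.12-fold lower. Between IR and IS libraries edgeR called 0 of the 41 further HIF targets, of which 12 had an unadjusted p under 0.05, beside 18.1% of all genes.

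In primary tumours, IR against control, 0 of 33 genes were called by edgeR or DESeq2, where 0% of all 12962 genes were called by edgeR and 124 genes (0.957%) by DESeq2. An unadjusted p under 0.05 was found for 5 of the 33 genes (15.2%) and for 991 of all genes (7.65%). All 33 genes overlapped between the groups, while 2.41% of all genes did not. The median absolute log2 difference was 0.18 over the 33 genes and 0.14 over all genes.

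Ddit4 had 386, 183, 219.8, 249.5 and 282 CPM in IR tumours, against 168, 134, 181 and 191 CPM in control tumours. IR 2 lay within the control range and the other 4 above it, at a log2 difference of 0.65 (SE 0.209, adjusted p = 0.518, edgeR). Egln3 had 174, 97, 123, 116 and 125 CPM in IR tumours, against 261, 145, 146 and 415 CPM in controls. Control 4 was the highest and IR 1 overlapped the controls, at a log2 difference of -0.93 (SE 0.31, adjusted p = 0.536, edgeR). Hk2 had 171, 75.2, 142, 139 and 88 CPM in IR tumours, against 71.8, 77.2, 96.7 and 79 CPM in controls. IR 2 and 5 overlapped the controls, at a log2 difference of 0.60 (adjusted p = 0.604, edgeR). Car9 had 181, 72.7, 74, 68.9 and 103 CPM in IR tumours, against 154, 80.9, 119.8 and 167 CPM in controls. Its groups covered much the same range (log2 difference -0.39, adjusted p = 0.888, edgeR).

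Pfkm had 38.6, 28.6, 29.5, 253 and 58.7 CPM in IR tumours, against 33, 28.2, 36.1 and 33.2 CPM in controls. IR 4 stood far above the rest, and the log2 difference of 1.32 was -0.02 with IR 4 and 5 left out together, a choice made after seeing the data. Aldoa had 1562, 1057, 966, 2404 and 1556 CPM in IR tumours, against 1187, 1042, 1227 and 1265 CPM in controls. Its log2 difference of 0.35 was 0.02 without those libraries. Skeletal muscle markers, all 7 detected, summed to 12491 CPM in IR 4, 1744 CPM in IR 5 and 9.27 to 19.1 CPM in the other IR tumours, and to 12.3 to 250 CPM in control tumours. Without IR 4 and 5 the log2 difference of Ddit4 was 0.64 and that of Egln3 -0.88, with 0 of the 33 genes called. IR 2 and control 2 also stood apart: lymphocyte markers summed to 333 CPM in IR 2 and 72.3 CPM in IR 5, with 4.29, 3.87 and 6.62 CPM in IR 4, 3 and 1, and to 283 CPM in control 2, with 5.13, 8.25 and 8.15 CPM in control 1, 3 and 4. With IR 2 and control 2 left out together, likewise chosen after seeing the data, the log2 difference was 0.67 for Ddit4, -1.02 for Egln3 and 0.71 for Hk2, and 0 of the 33 genes were called. Fibroblast markers, all 7 detected, summed to 6133 to 12128 CPM in IR and 3521 to 6615 CPM in control tumours, and their part was not tested. Of 42 further HIF targets, 13 genes of the HIF machinery, 18 further glycolytic genes and 13 genes of pyruvate entry, edgeR called 0 in tumours, while an unadjusted p under 0.05 was found for 7, 0, 1 and 1 of them in the same order, beside 7.65% of all genes.

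**Figure D4:**
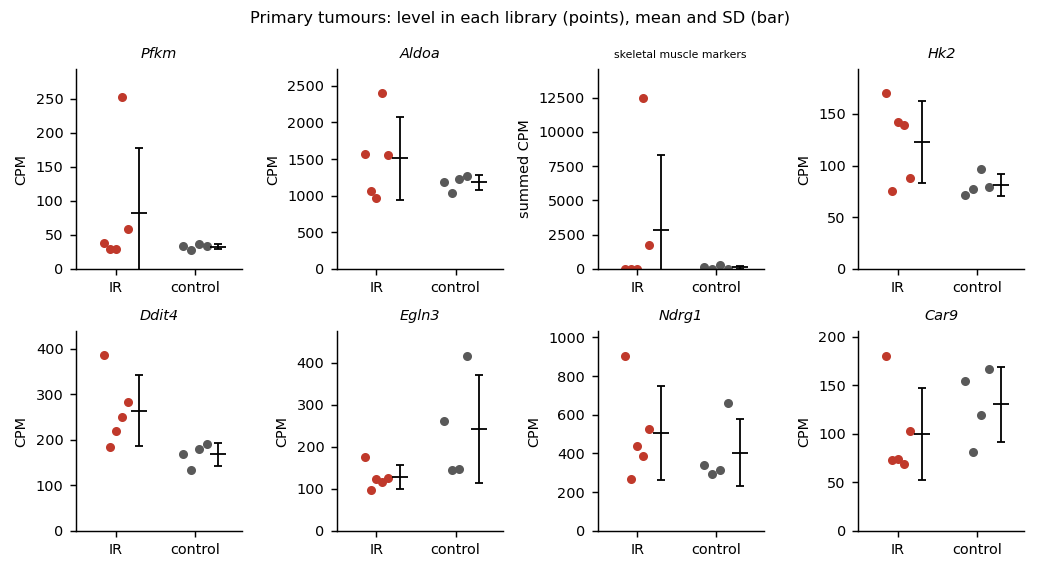
Levels in CPM (y axes) of 7 genes and the summed skeletal muscle markers in each primary tumour library (points), with mean and SD (bars, ending at the axis where they would pass below 0), for IR and control (x axes). IR 4 is highest for Pfkm, Aldoa and the muscle markers, and the groups overlap in every gene.

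Libraries titled miR-145a-3p, against those titled scramble, had higher levels of several glycolytic enzymes and of Egln3, and lower Pfkfb3, Pfkfb4, Hilpda and Pfkp. Of 27 genes tested, 12 were called higher and 4 lower (59.3% of them), close to the 56.7% of all 10751 genes that were called, 28% higher and 28.7% lower. The median absolute log2 difference was 0.27 over these genes and 0.28 over all genes.

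Tpi1, triose phosphate isomerase, had 457, 439 and 439 CPM in libraries titled miR-145a-3p, against 283 and 277 CPM in those titled scramble. The groups were apart, as in 21 of the 27 genes and 73% of all genes, at 1.59-fold higher (log2 difference 0.67, SE 0.0565, adjusted p = 0.000117, edgeR). Ldha had 1331, 1298 and 1314 CPM in libraries titled miR-145a-3p, against 974 and 823 CPM in those titled scramble. It was 1.46-fold higher, with the scramble libraries apart from each other (adjusted p = 0.000958, edgeR). Egln3 had 26.5, 26.7 and 25.9 CPM in libraries titled miR-145a-3p, against 16.1 and 14.9 CPM in those titled scramble. It was 1.70-fold higher without overlap (adjusted p = 0.000244, edgeR). Hilpda had 10.3, 10.4 and 10.7 CPM in libraries titled miR-145a-3p, against 18.1 and 16.5 CPM in those titled scramble. It was 1.65-fold lower (adjusted p = 0.000829, edgeR). Pfkfb4, a relative of Pfkfb3, had 3.72, 4.99 and 4.38 CPM in libraries titled miR-145a-3p, against 7.11 and 7.12 CPM in those titled scramble, 1.62-fold lower (adjusted p = 0.00763, edgeR).

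Pfkm was 1.44-fold, Bnip3 1.35-fold, Pgam1 1.34-fold, Pfkl 1.26-fold, Hk2 1.25-fold, Pkm 1.25-fold, Eno1 1.21-fold and Gpi1 1.11-fold higher, as was Pdk1, a kinase that inhibits pyruvate dehydrogenase, at 1.23-fold. Pfkfb3 was 1.25-fold and Pfkp 1.20-fold lower. The 11 uncalled genes, Gapdh among them, had log2 differences from -0.11 for Slc2a1 to 0.20 for Slc16a1. Summed over the 21 glycolysis genes, the level was 13161 to 13816 CPM in libraries titled miR-145a-3p and 11330 to 11762 CPM in those titled scramble. Of 33 further HIF targets, 8 were higher and 9 lower, and of 12 genes of the HIF machinery 5 were higher and 4 lower, where 56.7% of all genes were called. Hmox1 was 2.10-fold lower, Zfp395, a zinc finger gene, 1.71-fold higher, Mxi1, a repressor of Myc targets, 1.69-fold higher, and Hif1a 1.66-fold higher (adjusted p = 0.000373, edgeR). Slc2a3, Aldoc, Eno2, Slc16a3, Adm and Ankrd37 were not tested, since fewer than 3 libraries reached 3 CPM. Only 2 libraries are titled scramble, so a gene reaching 3 CPM in them alone could not be tested. A gene reaching it in the 3 titled miR-145a-3p alone could. The counts higher and lower thus leave out genes such as Angptl4, at 8.71 and 8.18 CPM in libraries titled scramble. It had 1.94, 2.39 and 1.92 CPM in those titled miR-145a-3p. Eno2 had 1.94, 1.86 and 1.73 CPM in libraries titled miR-145a-3p, against 5.51 and 5.66 CPM in those titled scramble.

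Without scaling factors the split was 17 higher and 2 lower, with the median of all genes at a log2 difference of 0.106, and Pfkp and Pfkfb3 were no longer called. Leaving out 1 library ended the call of Gpi1 without miR-145a-3p 1, 2 or 3 (adjusted p from 0.105 to 0.149), of Pfkm without miR-145a-3p 1 or 2 (adjusted p from 0.0585 to 0.0593), of Pfkfb3 without miR-145a-3p 2 or 3 or scramble 1 (adjusted p from 0.0509 to 0.0859), of Pdk1 without miR-145a-3p 2 or 3 or scramble 1 (adjusted p from 0.0604 to 0.102) and of Bnip3 without miR-145a-3p 1, 2 or 3 or scramble 2 (adjusted p from 0.0639 to 0.121). With no filter on low counts Pfkp (adjusted p = 0.219) and Pfkfb3 (adjusted p = 0.29) were not called, with filterByExpr Pfkfb3 was not (adjusted p = 0.06), and with upper quartile scaling Gpi1 (adjusted p = 0.138) and Pdk1 (adjusted p = 0.0509) were not. Carcinoma epithelial markers, 2 of 7 called higher, 1 lower and none at 0, summed to 3916 to 4142 CPM in libraries titled miR-145a-3p and 3518 to 3545 CPM in those titled scramble. Macrophage and microglia markers, with 5 of 9 at 0 in both groups (Adgre1, C1qa, C1qb, C1qc and Tyrobp), summed to 5.53 to 6.78 CPM in libraries titled miR-145a-3p and 11.6 to 12.5 CPM in those titled scramble; fibroblast markers to 6.68 to 8.02 and 10.4 to 11 CPM; and skeletal muscle markers to 1.77 to 2.25 and 7.04 to 9.33 CPM. The 2 libraries titled scramble differed from each other over all genes by a chi-square of 64 per degree of freedom, where pairs titled miR-145a-3p differed by 5.72 to 7.61. The part of these differences in the results was not tested.

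Seen by gene, Egln3 was called higher with IR and IS exosomes in culture, in IR brain libraries and in libraries titled miR-145a-3p. In tumours, where it ran lower in IR, Egln3 was not called. Ndrg1 was called higher in both exosome groups and both brain groups. Comparisons within an experiment share libraries. Pfkp was called higher in both exosome groups and both brain groups and lower in libraries titled miR-145a-3p. Ldhb was called higher with IS exosomes and in both brain groups. Ddit4 was called lower in both exosome groups, and Hilpda lower in IR brain libraries and in those titled miR-145a-3p. Slc2a1, Hk2, Aldoc, Pgk1, Pkm, Slc16a1, Slc16a3, Pfkfb4 and Pdk1 had 1 call each, and Car9, Slc2a3, Eno2, Adm, Ankrd37 and Egln1 had none. Gapdh, Pgk1, Pgam1, Eno1, Aldoa, Ldha and Ldhb share sequence with near-identical copies, so reads may have been split between them; adding the named copies to them, a choice made after seeing the data, left the number called in every comparison as it was.

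**Figure D5:**
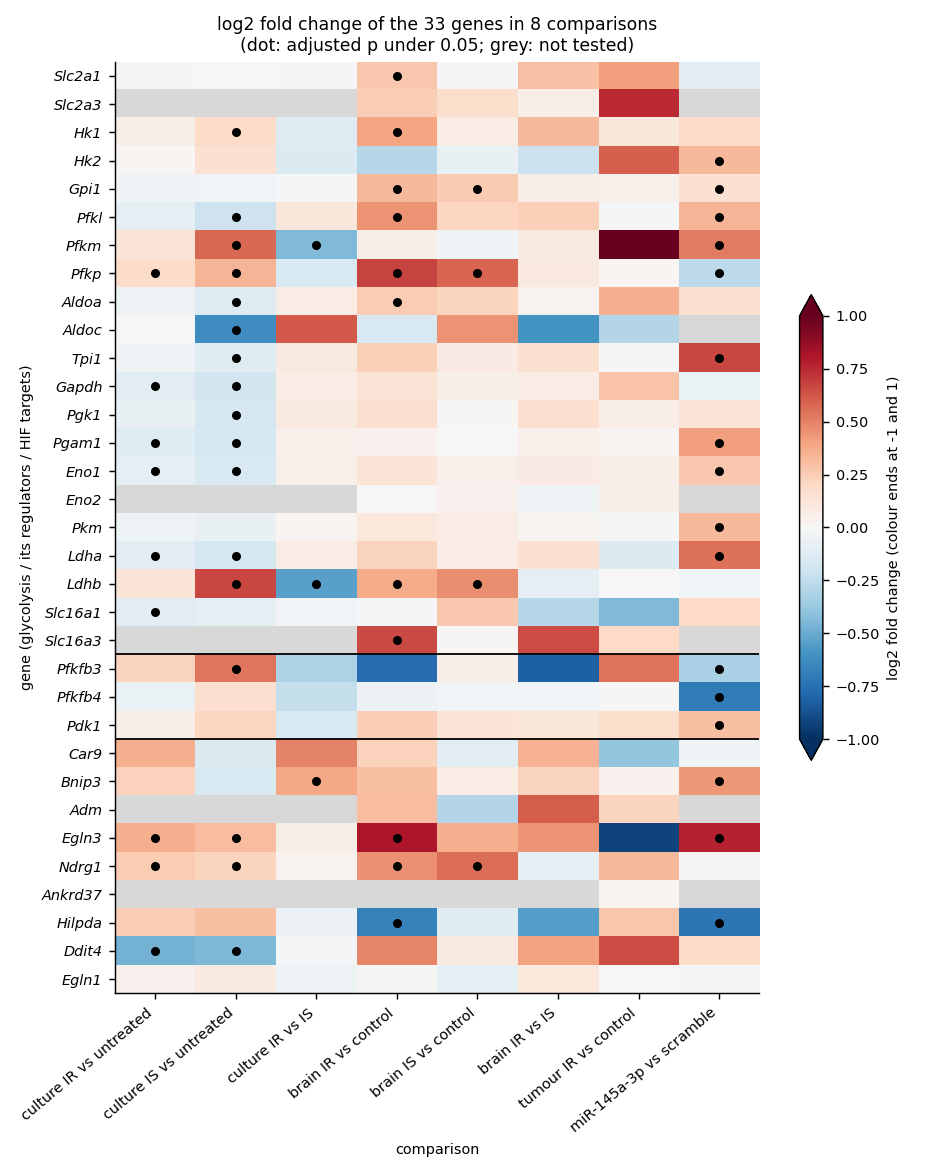
Log2 fold change (colour, limits -1 and 1) of the 33 genes (rows) in the 8 comparisons (columns). Dots mark an adjusted p under 0.05 and grey marks genes not tested. Egln3, Ndrg1 and Ldhb each carry a dot in 4 columns, Pfkp carries more, and the tumour column has none.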

How the data were processed

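RNA was sequenced from 38 libraries in 4 experiments. The deposited tables of culture and brain hold RSEM expected counts per gene and those of tumours and the miRNA experiment hold salmon estimated counts, per the names of the deposited tables; the series text names the nf-core RNA-seq pipeline, DESeq2 and a minimum of 3 CPM in 3 or more samples. Trimmomatic, STAR, featureCounts and DESeq2, and the builds GRCm38/mm10 and GRCm39/mm39, stand in the submitters' processing notes, with no word on the build behind a given table. Estimated counts share reads between similar genes, which limits genes with near-identical copies. The IR columns of the culture and brain tables carry a group and a number only, so IR libraries are named by their column number. Of the in vitro table, 3 columns that matched no sample were not used.

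Counts were rounded, genes with at least 3 CPM in at least 3 libraries of a table were kept (10888, 12924, 12962 and 10751), and edgeR 4.0.16 in R 4.3.3 was used with TMM scaling and the quasi-likelihood test, all groups of a table in 1 fit. SE is the absolute log2 change over the square root of F. The script was tested on simulated data. DESeq2, other scalings and filters, a replicate block and leaving out each library were tried. The members and all gene lists were chosen with earlier results of these data known. Every member is accounted for in each comparison; values per library are given for the called members of largest change or smallest adjusted p and for members of the same step, and for other lists some of the called genes of largest change. The biological coefficient of variation was 0.0576 in culture, 0.159 in brain, 0.326 in tumours and 0.0819 in the miRNA experiment.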

Additional observations from a re-analysis of the deposited data

Results flagged for a closer look

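In 10 of 162 groups of 4 or 5 libraries, 1 library stood apart from the others of its group by its gap to the nearest, where chance flags about 1 in 20. In tumours, IR 4 had 253 CPM of Pfkm, with the next library at 58.7 CPM, and IR 1 had 60.5 CPM of Aldoc, with the next at 40.2 CPM. Control tumour 4 had 34.8 CPM of Eno2, with the next at 19.5 CPM, 43.1 CPM of Adm, with the next at 16.7 CPM, and 660.0 CPM of Ndrg1, with the next at 342 CPM. In brain, IR 3 had 287 CPM of Pfkp, with the next at 214 CPM, and 1020 CPM of Pgam1, with the next at 923 CPM. Brain IR 5 had 5.56 CPM of Aldoc, with the next lowest at 7.69 CPM. Brain IS 1 had 720.0 CPM of Pgk1, with the next at 576 CPM, and 1595 CPM of Eno1, with the next at 1292 CPM.

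In 2 genes every IR library moved one way in brain and the other way in culture, each relative to its own reference libraries. The log2 change of Aldoa was 0.251 in brain and -0.054 in culture, and that of Gapdh was 0.139 in brain and -0.107 in culture. The difference between the experiments was not tested.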

How the results depend on the processing

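Over the alternatives run, 3631 of the single-gene values kept their direction and side of the threshold, 125 lost the call and 66 gained one, and no called gene changed sign; the cause of a lost or gained call was not tested. Of the counts of members called, those that moved by over 1.5 times were as follows. In culture, IR against untreated gave 2 lower without scaling factors, and IR against IS gave 2 higher with no filter and with filterByExpr and 4 lower without scaling factors. In brain, IR against control gave 2 lower with no filter and 3 lower with 2 groups in the fit, and IR against IS gave 4 higher and 2 lower with DESeq2 and 1 higher with no filter. In the miRNA experiment no scaling factors gave 2 lower. Same-numbered libraries did not deviate together in every pair of culture (correlations from -0.21 to 0.115) or brain (-0.192 to 0.23). In tumours all such correlations were positive (0.081 to 0.758) by the replicate numbers of the titles. Control 4 of the titles has a library name that ends in 5, and its correlation with IR 5 was -0.054. In the miRNA experiment they were -0.136 to -0.061, but 2 scramble libraries deviate as mirror images, so pairing could not be judged. No label ties the numbers, so they were not taken as pairs. With the replicate block, brain IR against control gave 2 lower and the miRNA experiment 7 higher and 2 lower. In the latter, Gpi1, Pkm, Eno1, Pdk1, Bnip3, Pfkp and Pfkfb3 were no longer called. That miRNA fit also left out miR-145a-3p library 3, whose number occurs once, so the block and the lost library were not told apart. In culture the block ended the calls of Slc16a1 with IR (adjusted p = 0.071, edgeR) and Aldoc with IS exosomes (adjusted p = 0.0629). In brain it ended those of Aldoa in IR (adjusted p = 0.0713) and Gpi1 in IS (adjusted p = 0.0522). With 2 groups in the fit, Slc16a1 (adjusted p = 0.0803) and Aldoc (adjusted p = 0.0603) were likewise not called in these culture comparisons. With 1 library left out at a time, the counts higher and lower ranged over 2 to 4 and 3 to 5 for culture IR, 7 to 8 and 7 to 10 for culture IS, 0 to 2 and 0 to 4 for culture IR against IS, 6 to 11 and 1 to 1 for brain IR, 3 to 4 and 0 to 0 for brain IS, 0 to 2 and 0 to 3 for brain IR against IS and 8 to 16 and 3 to 5 for the miRNA experiment. Tumours gave 0 under every alternative run. Members under the filter of 3 libraries were tested only with other filters, where Eno2 was lower in libraries titled miR-145a-3p (log2 -1.53, adjusted p = 0.000339 with filterByExpr, edgeR). Depth limits the genes under about 3 CPM, and the spread among tumours limits what could be called there.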
